A study of Mus musculus with 12 samples.

Results

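The genes described here encode 9 enzymes that link the tricarboxylic acid (TCA) cycle to aspartate, asparagine, glutamate, alanine, proline and phosphoenolpyruvate (PEP). They are Asns, Got1, Got2, Glud1, Gpt2, Aldh18a1, Pycr1, Pck2 and Pcx, taken by name from the 21671 genes measured, and all 9 passed the filter on low values. RNA was sequenced from FL5.12 cells, an interleukin 3-dependent mouse line labelled prolymphocytic (BALB/c), here a pool transduced with a retrovirus for MycER, a chimeric MYC protein that 4-hydroxytamoxifen (OHT) switches on. IACS-010759 (IACS) inhibits complex I of the mitochondrial respiratory chain. There were 4 conditions with 3 biological replicates each, and cells of all 4 carried MycER. Untreated cells received neither compound. OHT cells received 100 nM OHT for 48 h and for a further 24 h, 72 h in all. IACS cells received 135 nM IACS for 24 h without priming, and OHT_IACS cells were primed for 48 h with 100 nM OHT and then received 135 nM IACS for 24 h, with OHT taken here as kept on, which the labels do not state outright. The replicates are described as biological, so the p-values measure the spread between them. Levels are given as RPKM, reads scaled by the length of the gene and by the library total. Library totals ran from 10376530 to 14550158, and OHT replicates 1 and 3 had the smallest, 10376530 and 10770476.

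Aspartate is built from the TCA cycle intermediate oxaloacetate, and its synthesis depends on the oxidation of NADH, which complex I carries out in respiring mitochondria. Proline is made from glutamate in steps that consume NAD(P)H, and PEP carboxykinase withdraws oxaloacetate from the cycle. Several amino acid enzymes, Asns first among them, are textbook targets of the transcription factor ATF4, which is made when translation initiation is restrained by stress.

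The OHT labels were checked on genes outside the enzymes, and no such check is given for the IACS labels. St6galnac4 and Rrp9, chosen as genes that MycER raises, rose with OHT by log2 fold changes of 1.38 and 0.64 (limma, adjusted p = 4.8e-09 and 1.5e-05), and the endogenous Myc mRNA fell by 0.81 (limma, adjusted p = 1.7e-07). Under IACS the changes with OHT were 1.22, 0.5 and -0.62 (limma, adjusted p = 1.8e-08, 0.00016 and 2.8e-06). IACS itself raised Myc by 0.34 in nonprimed and 0.53 in primed cells (limma, adjusted p = 0.00099 and 2.4e-05). It raised St6galnac4 by 0.21 in nonprimed cells (limma, adjusted p = 0.034), and Rrp9 was called in neither response to IACS. Of 9 pro-B markers, Pax5, Il7r and Rag1 were at 0 in every library. In at least 1 library 3 reached 1 RPKM, Il3ra, a subunit of the interleukin 3 receptor and the most abundant, and the B cell receptor components Cd79b and Cd79a. In untreated, OHT, IACS and OHT_IACS cells the mean RPKM of Cd79b was 2.95, 1.36, 3.13 and 1.43, and that of Cd79a 0.994, 1.09, 1.27 and 0.89. The summed RPKM of these markers was 11.3, 10.9 and 13.1 in untreated, 7.77, 9.49 and 8.64 in OHT, 12.8, 12.3 and 11.4 in IACS, and 11.3, 12.6 and 11.6 in OHT_IACS cells. Of 8 myeloid markers 6 reached 1 RPKM, led by Prtn3. Their summed RPKM was 46.5, 47.9 and 45.4 in untreated, 23.4, 28.4 and 27.7 in OHT, 47.6, 50.2 and 40.1 in IACS, and 25.7, 25.9 and 25.3 in OHT_IACS cells. Of 5 erythroid markers measured 4 reached 1 RPKM, led by Gata1. Their sums were 42.6, 43.1 and 43.4 in untreated, 44.3, 46.7 and 43.6 in OHT, 41.2, 39.1 and 35.0 in IACS, and 38.3, 37.6 and 38.0 in OHT_IACS cells. Over the 4 conditions in that order the mean RPKM of Gata1 was 27.1, 32.2, 28.7 and 29.7, that of Klf1 13.3, 9.53, 6.96 and 5.1, that of Epor 1.74, 1.61, 1.36 and 1.07, and that of Hbb-b1 0.861, 1.47, 1.47 and 2.1. Of 5 T cell markers only Cd3g reached 1 RPKM, and Cd3e was at 0. Their sums were 1.88, 2.18 and 1.85 in untreated, 1.04, 0.945 and 1.09 in OHT, 2.38, 2.35 and 1.58 in IACS, and 1.42, 1.57 and 1.83 in OHT_IACS cells. The myeloid sum and the mean of Cd79b were lower in both groups with OHT. The pro-B and T cell sums were lower in OHT than in untreated cells. With IACS, in nonprimed and in primed cells, the means of Klf1 and Epor were lower and that of Hbb-b1 higher. The part of these in the results was not tested. In these bulk samples, fewer cells of a type and less RNA per cell cannot be told apart.

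A pair of features of the libraries bears on the values. Reads of abundant genes levelled off as library totals grew. The median slope of log2 reads on log2 library total was 1.38 for genes under 0.1 reads per base and 1.204 for those from 0.1 to 0.3. It was 0.911 for those from 0.3 to 0.5, 0.594 for those from 0.5 to 1, and 0.184 above 1. Asns, at 0.733 reads per base, and Got2, at 0.742, lay in the range from 0.5 to 1. Aldh18a1, Glud1, Got1 and Pck2 lay from 0.345 to 0.475, Gpt2 at 0.276, Pcx at 0.123 and Pycr1 at 0.0511. Sizes of change are therefore not compared between abundant and scarce genes, and the rule that picked the related genes named, by size of change, is not to be read as such a ranking. Medians of lists and of all genes are likewise given side by side only as a description. Secondly, IACS replicates 1 and 2 differed, over all 11179 genes compared, by no more than sampling noise (chi-square per gene 1.018, p = 0.09), whereas each of the other 11 pairs of replicates differed by more. After that result was seen, the comparison was repeated on scarcer genes. There the chi-square per gene was 1.055 under 0.3 reads per base (p = 0.00012), beside 1.106 to 2.647 for the other 11 pairs. Under 0.1 reads per base, over 5856 genes, the chi-square per gene was 1.082 (p = 7.2e-06), beside 1.075 to 1.783 for the others. The other IACS pairs were at 1.468 and 1.77 there. The chi-square covers counting error only, and does not show whether the libraries came from separate cultures. They were kept as separate replicates as labelled and as planned, so that both count among the 3 of IACS cells, and each call of a gene named here that ends when they are counted as 1 sample is given as such.

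All 9 enzymes were expressed. Averaged over the 12 libraries, Got2 (59.6 RPKM) and Asns (59.1 RPKM) were the most abundant, each at the 97.3rd percentile of the 9745 genes tested, and Pycr1 (4.08 RPKM) the least, at the 25.2nd.

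With IACS in nonprimed cells, 5 of the 9 enzymes rose, Asns, Gpt2, Aldh18a1, Pycr1 and Pck2, beside 8.15% of all genes tested that rose (limma, adjusted p under 0.05). None of the 9 fell, beside 7.74% of all genes, and 0 fell at an unadjusted p under 0.05 or with voom on the recovered reads. In OHT-primed cells IACS raised 6, the same 5 and Pcx, beside 11.9% of all genes. Again none fell, beside 11.8% of all genes, with 0 also at an unadjusted p and with voom. With IACS replicates 1 and 2 counted as 1 sample, each of these calls was made too. These 2 responses to IACS share no library. The 9 enzymes and the lists of related genes were chosen with earlier results of these data known. Their counts beside the shares of all genes are therefore a description and no independent support. The 9 enzymes had a median log2 fold change of 0.35 in nonprimed and 0.3 in primed cells. Over all genes tested, most of them less abundant than these enzymes as a set, it was 0.004 and -0.014, and the sizes are not compared. The shares of all genes depended on single libraries. In nonprimed cells the 794 genes that rose were 498 without untreated replicate 1 and 514 without IACS replicate 1. The 754 that fell were 451, 456 and 490 without untreated replicate 1, 2 or 3, and 429 without IACS replicate 3. In primed cells the 1146 that fell were 751 without OHT replicate 3 and 710 without OHT_IACS replicate 3.

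With OHT alone, Asns, Got1 and Got2 rose and Pck2 and Pcx fell, 3 and 2 of 9, each direction beside 18.2% of all genes. Without OHT replicates 1 and 3, an alternative added after seeing the data, 1 OHT library was left and was assumed to vary like the other groups. The 3 that rose then numbered 0, with log2 fold changes of 0.148 for Asns, 0.115 for Got1 and 0.135 for Got2 in place of 0.33, 0.23 and 0.28, and the 2 that fell were called too. Under IACS, OHT raised 1 enzyme, Got2, beside 12.3% of all genes, and lowered 2, Pck2 and Pycr1, beside 14.2%. The count of 1 became 0 without IACS replicate 2 or with IACS replicates 1 and 2 counted as 1 sample. It became 2 without OHT replicate 2 and with weights per library. The responses to IACS with and without priming were compared by their difference, the interaction, for which 0.144% of all genes passed and none of the 9 (3 at an unadjusted p under 0.05, 0 with voom). Without OHT replicate 2 the number was 3, with weights per library 4 and with quantile normalization 1. The 0.144% were 14 genes, and 3 to 149 with 1 library left out. A p that misses the threshold does not show that values did not differ. Among the related genes described further on, limma called the interaction for none in any of the 7 lists (0 with voom, and at most 2 in a list at an unadjusted p under 0.05).

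**Figure D1:**
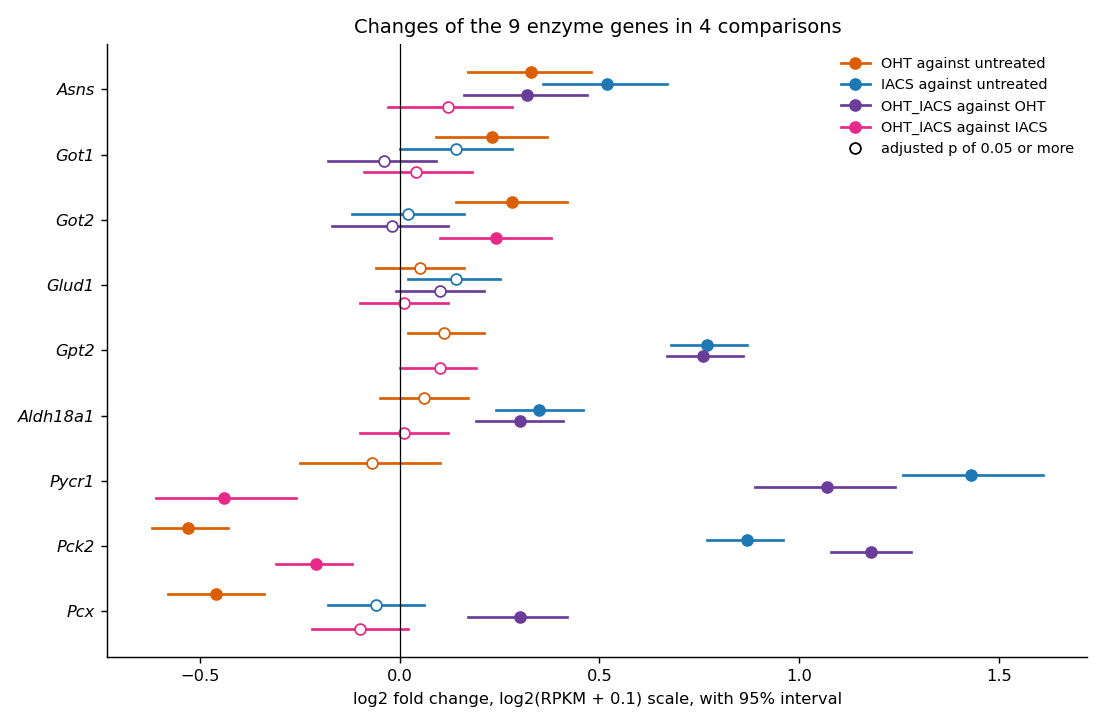
Log2 fold change of each of the 9 enzyme genes (x axis, log2(RPKM + 0.1) scale) in 4 comparisons, with its 95% interval as a line and an open circle where the adjusted p was 0.05 or more. Asns, Gpt2, Aldh18a1, Pycr1 and Pck2 lie to the right of 0 and are called in both responses to IACS, and Pck2 and Pcx lie to the left and are called with OHT alone.

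The 9 genes were matched to promoter windows of RefSeq (GRCm38.p6), which hold 250 bases before and 50 bases from the start site on, and all 9 had a window. Since 5 of them rose in both responses to IACS, the windows were searched on both strands for TGATGNAA, the core of the C/EBP-ATF response element to which ATF4 binds with a C/EBP partner. It is found in 3.97% of 32851 promoter windows, and in 2.15% of the 9313 windows of genes tested. It occurred in the windows of Asns, Pycr1, Pck2 and Got1, shown here because the first 3 rose with IACS and the last was not called. Capitals mark the match, which in Pck2 and Got1 is on the opposite strand and is printed as it reads on the gene's strand.
Asns: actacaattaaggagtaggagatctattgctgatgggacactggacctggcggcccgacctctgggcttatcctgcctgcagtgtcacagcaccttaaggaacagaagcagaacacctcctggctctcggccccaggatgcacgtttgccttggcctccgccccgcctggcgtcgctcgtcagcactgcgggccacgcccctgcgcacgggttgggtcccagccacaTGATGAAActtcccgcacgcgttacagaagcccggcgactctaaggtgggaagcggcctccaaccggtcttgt
Pycr1: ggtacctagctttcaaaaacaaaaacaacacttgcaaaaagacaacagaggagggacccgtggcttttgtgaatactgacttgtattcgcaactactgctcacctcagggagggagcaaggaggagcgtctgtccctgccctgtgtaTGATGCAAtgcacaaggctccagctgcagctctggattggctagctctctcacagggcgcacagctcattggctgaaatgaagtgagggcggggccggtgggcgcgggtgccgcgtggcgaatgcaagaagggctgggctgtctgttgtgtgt
Pck2: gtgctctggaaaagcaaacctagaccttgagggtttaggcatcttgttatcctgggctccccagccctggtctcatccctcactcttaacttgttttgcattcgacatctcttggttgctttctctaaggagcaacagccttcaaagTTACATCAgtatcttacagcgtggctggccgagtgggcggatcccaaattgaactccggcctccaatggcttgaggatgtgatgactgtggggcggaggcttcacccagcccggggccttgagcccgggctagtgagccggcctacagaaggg
Got1: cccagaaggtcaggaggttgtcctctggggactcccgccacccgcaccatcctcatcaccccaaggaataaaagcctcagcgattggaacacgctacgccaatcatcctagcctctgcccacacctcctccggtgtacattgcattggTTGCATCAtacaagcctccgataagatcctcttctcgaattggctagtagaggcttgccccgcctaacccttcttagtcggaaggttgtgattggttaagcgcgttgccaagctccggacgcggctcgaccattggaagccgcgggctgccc
These windows are, in GRCm38, chr6:7693160-7693459 on the minus strand for Asns, chr11:120643699-120643998 on the minus strand for Pycr1, chr14:55540016-55540315 on the plus strand for Pck2 and chr19:43524556-43524855 on the minus strand for Got1. The match began 23 bases before the start site in Asns, 103 bases in Pycr1 and Pck2, and 102 bases in Got1. The letters were not in the windows of Gpt2 and Aldh18a1, which rose, nor in those of Got2, Glud1 and Pcx. A second motif, the E-box CACGTG that MYC-MAX dimers bind, is in 7.15% of all windows and 10.5% of those of genes tested. It was in the window of Aldh18a1, 59 bases before the start site, and in 1 of the 2 windows of Pcx, 248 bases before it. A match is a stretch of letters and was not tested for binding.

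Asns encodes asparagine synthetase, which transfers the amide nitrogen of glutamine to aspartate. It lies on chromosome 6 from 7675169 to 7693254 (GRCm38, minus strand). Its RPKM was 44.4, 44.2 and 44.5 in untreated replicates 1, 2 and 3, 59.5, 50.7 and 60 with OHT, 65.4, 62.6 and 66.6 with IACS, and 71.0, 70.7 and 69.4 with OHT_IACS. The 4 conditions were ordered untreated, OHT, IACS, OHT_IACS, and no neighbours in that order overlapped. IACS raised it by 0.52 ± 0.07 on the log2 scale in nonprimed cells (standard error after ±, limma, adjusted p = 0.00038) and by 0.32 in primed cells (standard error 0.07, limma, adjusted p = 0.0074). The latter was 0.495 without OHT replicates 1 and 3 and 0.225 without OHT replicate 2. OHT alone raised it by 0.33 (standard error 0.07, limma, adjusted p = 0.0032). OHT replicates 1 and 3 had the highest values of their group, and replicate 2 also lay above every untreated library. The rise was called in 25 of 26 alternatives, among them without either of replicates 1 and 3 alone, at 0.165 with the library total added to the fit and at 0.212 with quantile normalization. Without both it was 0.148 with 1 OHT library left, and was not called (adjusted p = 0.12, in a range of 5.7e-06 to 0.12 over the alternatives). Under IACS the difference with OHT was 0.12 (adjusted p = 0.23, from 0.027 to 0.5 over the alternatives), called with weights per library and without OHT replicate 2 (0.047). The interaction was -0.2 (adjusted p = 0.44, from 0.031 to 0.96), called in the same 2 alternatives.

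Got1 and Got2 encode the cytosolic and the mitochondrial aspartate aminotransferase, which interconvert aspartate and oxaloacetate on the 2 sides of the malate-aspartate shuttle. Neither passed the test in either response to IACS. Got2 RPKM was 53.6, 52.9 and 52.9 in untreated, 67.3, 60.2 and 70.0 in OHT, 55.5, 53.2 and 55.8 in IACS, and 64.1, 66.3 and 63.2 in OHT_IACS cells. Both conditions with OHT lay above both without it, and the 2 conditions within each pair overlapped. OHT raised Got2 by 0.28 in the absence of IACS (standard error 0.07, limma, adjusted p = 0.0044) and by 0.24 in its presence (standard error 0.07, limma, adjusted p = 0.015). The first was called in 25 of 26 alternatives, at 0.147 with the library total in the fit and 0.139 with quantile normalization, and was 0.135 and not called without OHT replicates 1 and 3 (adjusted p = 0.13, from 9e-06 to 0.13 over the alternatives). The second lost its call without IACS replicate 2 (0.066) and with IACS replicates 1 and 2 counted as 1 sample (0.057, from 0.0001 to 0.066 over the alternatives). IACS changed Got2 by 0.02 in nonprimed cells (95% interval -0.12 to 0.16) and by -0.02 in primed cells (-0.17 to 0.12), and the sign turned in 3 and in 4 of 26 alternatives.

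Got1 RPKM was 35.2, 33.5 and 33.5 in untreated, 40.6, 38.0 and 43.1 in OHT, 39.0, 35.8 and 40.1 in IACS, and 39.4, 40.1 and 38.4 in OHT_IACS cells. Untreated libraries were the lowest, IACS overlapped with OHT_IACS, and OHT_IACS with OHT. OHT raised it by 0.23 (standard error 0.06, limma, adjusted p = 0.013). This call was lost without untreated replicate 3 (0.211, adjusted p = 0.052) and without OHT replicate 3 (0.196, adjusted p = 0.059). It was also lost without OHT replicates 1 and 3 (0.115, adjusted p = 0.32) and with the library total added to the fit (0.089, adjusted p = 0.14), in a range of 9e-05 to 0.32. IACS changed Got1 by 0.14 in nonprimed cells (limma, adjusted p = 0.15), a change called with quantile normalization (0.049) and with weights per library (0.048), in a range of 0.048 to 0.45. The change was 0.086 without IACS replicate 3 and 0.061 with the library total in the fit. In primed cells the value was -0.04 (adjusted p = 0.66), with the sign turned without OHT replicates 1 and 3, and under IACS the difference with OHT was 0.04 (adjusted p = 0.65). That difference turned sign without IACS replicate 2 (-0.012) and with the library total in the fit (-0.001). The interaction was -0.18 (adjusted p = 0.42, from 0.042 to 0.88), called with weights per library.

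**Figure D2:**
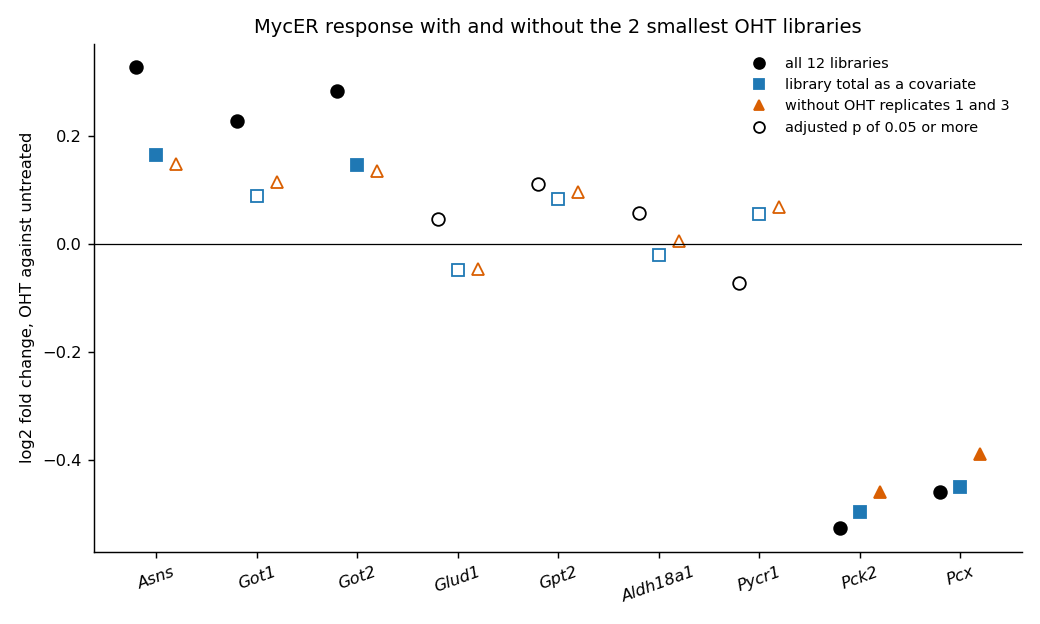
Log2 fold change of each of the 9 enzyme genes between OHT and untreated cells (y axis), with all 12 libraries, with the log2 library total in the fit and without OHT replicates 1 and 3, with open symbols where the adjusted p was 0.05 or more. Pck2 and Pcx are called in each of the 3, Asns and Got2 in all but the last, which has 1 OHT library, and Got1 in the first.

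Around aspartate, 7 of 11 other genes of aspartate and malate metabolism could be tested. None passed with IACS in nonprimed cells (limma, with 4 at an unadjusted p under 0.05, 2 in each direction, and 1 in each direction with voom), and 2 fell in primed cells. Over all genes tested 8.15% rose and 7.74% fell in nonprimed cells, and 11.8% fell in primed cells. The 2 were the mitochondrial aspartate-glutamate carriers Slc25a13, from 19.6 ± 2.08 to 15.3 ± 0.364 RPKM (SD, n = 3; log2 fold change -0.35, limma, adjusted p = 0.0011), and Slc25a12 (-0.17, adjusted p = 0.038). The call of Slc25a12 was lost in 12 of 26 alternatives (adjusted p up to 0.32), among them without OHT replicate 3, where the value was -0.115, without OHT replicates 1 and 3 (-0.107), and without untreated replicate 3 or any OHT_IACS library. With OHT 3 rose, beside 18.2% of all genes tested, namely the asparaginase Asrgl1 (0.21, adjusted p = 0.0022), mitochondrial malate dehydrogenase Mdh2 (0.19, adjusted p = 0.038) and Slc25a13 (0.16, adjusted p = 0.043). The call of Mdh2 was lost in 13 of 26 alternatives (adjusted p up to 0.53), among them without OHT replicate 1 or 3 or any untreated or OHT_IACS library. Its value was 0.126 without OHT replicate 1, 0.063 without OHT replicates 1 and 3, 0.065 with the library total in the fit and 0.061 with quantile normalization. That of Slc25a13 was lost in 18 (up to 0.18), with IACS replicates 1 and 2 counted as 1 sample (0.0503) and without any 1 library but OHT replicate 1 or IACS replicate 3. A further list held genes that consume aspartate, the lyases Asl and Adsl, and genes that load aspartate or asparagine on tRNA. All 10 were tested. In nonprimed cells IACS raised 2, beside 8.15% of all genes tested, the cytosolic asparaginyl-tRNA synthetase Nars (47.2 ± 1.15 to 59.3 ± 1.46 RPKM, SD, n = 3; log2 fold change 0.3, limma, adjusted p = 0.0038) and the adenylosuccinate synthase Adssl1 (0.54, adjusted p = 0.0019). In primed cells 3 rose, beside 11.9% of all genes, Adssl1 (0.51, adjusted p = 0.0019), Ass1 (0.83, adjusted p = 0.041) and Nars (0.18, adjusted p = 0.037), and none fell (limma, 1 at an unadjusted p under 0.05, 0 with voom). The call of Nars was lost in 7 of 26 alternatives (adjusted p up to 0.12), among them without untreated replicate 2 or 3, IACS replicate 1 or any OHT_IACS library. Its value was 0.287 without OHT replicates 1 and 3. The call of Ass1 was lost in 14 of 25 alternatives (adjusted p up to 0.31), among them without OHT replicate 1, IACS replicate 1, untreated replicate 1 or 3 or any OHT_IACS library, and that of Adssl1 without OHT replicates 1 and 3 (0.41, adjusted p = 0.073). Ass1 was at 0.462 without OHT replicate 1, 0.444 without OHT replicates 1 and 3 and 0.321 with a pseudocount of 1. With OHT 3 rose and 2 fell, each direction beside 18.2% of all genes. Argininosuccinate synthase Ass1, which joins aspartate to citrulline, fell from 2.32 ± 0.432 to 0.404 ± 0.197 RPKM (SD, n = 3; log2 fold change -2.36, limma, adjusted p = 2.3e-05), on at most 63 reads in a library. With a pseudocount of 1 the value was -1.258. Adssl1 fell by 0.47 and Nars2 rose by 0.37 (limma, adjusted p = 0.0016 and 0.0029), and with 1 OHT library left, without replicates 1 and 3, the values were -0.369 and 0.371 and were not called (0.062 and 0.054, the highest over 26 alternatives).

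Gpt2 encodes the mitochondrial alanine aminotransferase, which makes alanine and 2-oxoglutarate from pyruvate and glutamate. The gene lies on chromosome 8 from 85492576 to 85527560 (GRCm38, plus strand). Its RPKM was 15.3, 15 and 16.3 in untreated, 16.2, 17.1 and 17.8 in OHT, 27.7, 26.5 and 27.0 in IACS, and 29.4, 29.1 and 28.2 in OHT_IACS cells. Untreated and OHT cells overlapped, IACS lay above both and OHT_IACS above all others. The log2 fold change with IACS was 0.77 in nonprimed cells (95% interval 0.68 to 0.87, limma, adjusted p = 1.2e-07) and 0.76 in primed cells (0.67 to 0.86, limma, adjusted p = 1.5e-07), and both were called in each of 26 alternatives. The interaction was -0.01 (95% interval -0.15 to 0.12). OHT changed it by 0.11 (adjusted p = 0.065), called with weights per library (0.0022, in a range of 0.0022 to 0.28). The cytosolic isoenzyme Gpt was far less abundant. It was at 2.88 ± 0.36 RPKM in untreated and 1.52 ± 0.25 in OHT cells (SD, n = 3), a fall of 0.9 (limma, adjusted p = 0.00044), and its change with IACS was -0.25 in nonprimed (adjusted p = 0.29) and 0.15 in primed cells (adjusted p = 0.5). The 2 genes were not tested against each other.

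Glud1 encodes glutamate dehydrogenase, which converts glutamate to 2-oxoglutarate in mitochondria. Its RPKM ran from 32.9 to 34.6 in untreated, 33.9 to 36.8 in OHT, 36.9 to 39.3 in IACS and 37.7 to 39.1 in OHT_IACS cells, with overlap between untreated and OHT cells and between IACS and OHT_IACS cells. IACS changed it by 0.14 in nonprimed cells (95% interval 0.02 to 0.25, limma, adjusted p = 0.092) and by 0.1 in primed cells (-0.01 to 0.21, adjusted p = 0.16). The first was called in 5 of 26 alternatives (adjusted p from 0.01 to 0.25) and the second in 2 (0.0029 to 0.34).

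Of 16 other genes of glutamate and glutamine metabolism, 9 could be tested. With IACS limma called none in nonprimed cells (3 higher and 0 lower at an unadjusted p under 0.05, 1 higher with voom), beside 8.15% of all genes tested that rose and 7.74% that fell. It called none in primed cells (0 at an unadjusted p and 0 with voom), beside 11.9% and 11.8%. With OHT 5 rose and 3 fell, each direction beside 18.2% of all genes tested. Glutamine synthetase Glul rose from 16.3 ± 0.43 to 40.6 ± 1.87 RPKM (SD, n = 3; log2 fold change 1.29, limma, adjusted p = 2e-09), and Gpt and the kynurenine aminotransferase Ccbl1 were among the 3 that fell. Ccbl1 went from 1.37 ± 0.0436 to 0.648 ± 0.12 RPKM (SD, n = 3), a log2 fold change of -1.01 (limma, adjusted p = 0.006), on at most 51 reads in a library. This call was lost with the library total added to the fit (-0.652, adjusted p = 0.13) and without OHT replicates 1 and 3 (-0.77, adjusted p = 0.16), in a range of 0.00023 to 0.16. With a pseudocount of 1 the value was -0.538.

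Aldh18a1 and Pycr1 encode the first and the last enzyme of proline synthesis from glutamate, pyrroline-5-carboxylate synthase and a mitochondrial pyrroline-5-carboxylate reductase. Pycr1 lies on chromosome 11 from 120635712 to 120643769 (GRCm38, minus strand). Its RPKM was 2.22, 2.41 and 2.5 in untreated, 2.21, 2.57 and 2.11 in OHT, 6.98, 6.93 and 6.26 in IACS, and 4.94, 5.13 and 4.67 in OHT_IACS cells, on 84 to 352 reads a library. Untreated and OHT cells overlapped, OHT_IACS lay above both and IACS above all others. IACS raised Pycr1 2.7-fold in nonprimed cells (log2 fold change 1.43, standard error 0.08, limma, adjusted p = 1.2e-07) and 2.1-fold in primed cells (1.07, standard error 0.08, limma, adjusted p = 1.8e-06), both called in each of 26 alternatives. Under IACS it fell with OHT, with a log2 change of -0.44 (standard error 0.08, limma, adjusted p = 0.0015), also in each of 26 alternatives. The test of the difference between the responses to IACS did not pass (-0.37, 95% interval -0.61 to -0.12, limma, adjusted p = 0.23, from 0.068 to 0.38 over the alternatives). OHT alone changed it by -0.07 (adjusted p = 0.52), with the sign turned in 3 of 26 alternatives and a call with weights per library (-0.19, adjusted p = 0.019, in a range of 0.019 to 0.99).

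Aldh18a1 RPKM was 31.6, 31.1 and 31.7 in untreated, 32.7, 32.6 and 34.5 in OHT, 40.6, 39.6 and 42.2 in IACS, and 42.4, 41.0 and 39.3 in OHT_IACS cells. Every library with IACS lay above every library without it. The log2 fold change with IACS was 0.35 in nonprimed (standard error 0.05, limma, adjusted p = 0.00063) and 0.3 in primed cells (standard error 0.05, limma, adjusted p = 0.0013). Both were called in each of 26 alternatives.

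The related reductase gene Pycrl did not rise with IACS. It was at 27.3 ± 1.01 RPKM in untreated and 23.3 ± 2.25 in IACS cells (SD, n = 3), a fall in nonprimed cells by 0.26 (limma, adjusted p = 0.041). This call was lost with IACS replicates 1 and 2 counted as 1 sample (0.055) and in 10 of 26 alternatives in all (adjusted p from 0.012 to 0.15), among them those without IACS replicate 2 or 3, OHT_IACS replicate 3 or any untreated library. In primed cells Pycrl changed by -0.23 (adjusted p = 0.056). Of 8 other genes of proline and ornithine metabolism 4 could be tested, and IACS lowered 3 in nonprimed and 1 in primed cells, beside 7.74% and 11.8% of all genes tested. It raised none (limma, 0 also at an unadjusted p and with voom), beside 8.15% and 11.9%. Aldh4a1, which oxidizes the proline breakdown product to glutamate, fell in nonprimed cells by 0.34 (adjusted p = 0.032). Its RPKM was 7.51, 7.23 and 7.01 in untreated and 6.91, 6.17 and 4.58 in IACS cells. The call was lost in 10 of 26 alternatives (adjusted p up to 0.11), among them without any untreated library, without IACS replicate 3, where the value was -0.198, and with weights per library (-0.213). Ornithine aminotransferase Oat fell in nonprimed cells by 0.17 (adjusted p = 0.041), a call lost in 13 of 26 alternatives (adjusted p up to 0.16), with IACS replicates 1 and 2 counted as 1 sample (0.091) and without any 1 untreated, IACS or OHT_IACS library. In primed cells Oat fell by 0.24 (adjusted p = 0.0046), a call lost without OHT replicates 1 and 3 (-0.146, adjusted p = 0.15). With OHT alone, where 18.2% of all genes rose and 18.2% fell, Pycrl fell by 0.35 and proline dehydrogenase Prodh by 0.26, and Oat rose by 0.23 (limma, adjusted p = 0.0038, 0.0031 and 0.0036), the last lost without OHT replicates 1 and 3 (0.131, adjusted p = 0.14). Oat was at 0.151 with the library total in the fit, and Prodh at -0.164 with weights per library.

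**Figure D3:**
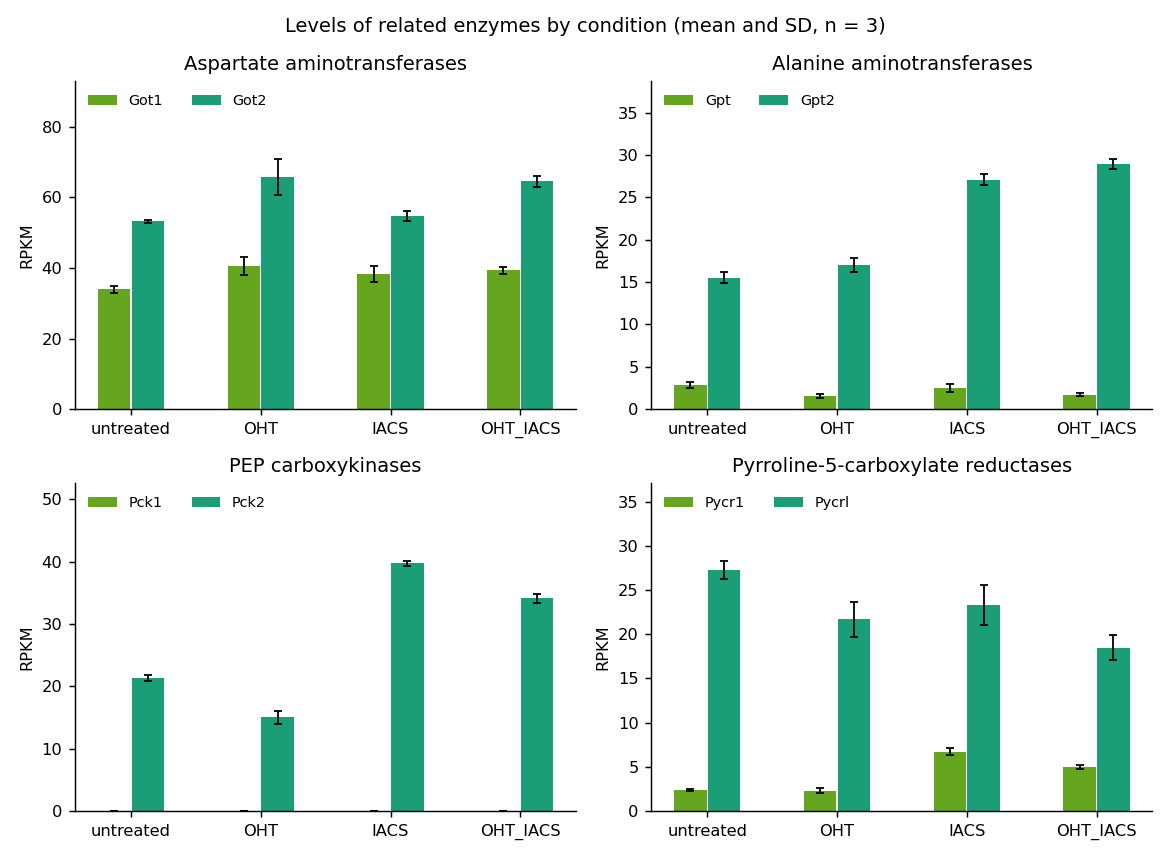
Mean RPKM with SD (y axis, n = 3) of related enzymes in the 4 conditions, for aspartate aminotransferases, alanine aminotransferases, PEP carboxykinases and pyrroline-5-carboxylate reductases. Gpt2, Pck2 and Pycr1 are higher in both conditions with IACS, and Pycr1 stays below Pycrl in each condition.

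Pck2 encodes the mitochondrial PEP carboxykinase, which turns oxaloacetate into PEP. It lies on chromosome 14 from 55540266 to 55551242 (GRCm38, plus strand). Its RPKM was 21.1, 20.9 and 21.9 in untreated, 13.9, 16.0 and 15.2 in OHT, 40.1, 39.3 and 39.6 in IACS, and 34.6, 34.3 and 33.3 in OHT_IACS cells. In the order OHT, untreated, OHT_IACS, IACS no neighbours overlapped. IACS raised it 1.82-fold in nonprimed cells (log2 fold change 0.87, standard error 0.04, limma, adjusted p = 7.8e-08) and 2.27-fold in primed cells (1.18, standard error 0.04, limma, adjusted p = 2.7e-09). OHT lowered it, by 0.53 in the absence of IACS (standard error 0.04, limma, adjusted p = 1.8e-06) and by 0.21 in its presence (standard error 0.04, limma, adjusted p = 0.0032). These 4 calls were made in each of 26 alternatives. The interaction was 0.31 (95% interval 0.18 to 0.45, limma, adjusted p = 0.074). It passed with quantile normalization (0.038), with weights per library (0.0031) and without OHT replicate 2 (0.022), in a range of 0.0031 to 0.36. The cytosolic isoenzyme Pck1 had at most 1 read in a library.

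Pcx encodes pyruvate carboxylase, which makes oxaloacetate from pyruvate in mitochondria. It lies on chromosome 19 from 4510472 to 4621752 (GRCm38, plus strand). Its RPKM was 10.6, 10.4 and 11.2 in untreated, 7.29, 8.4 and 8.0 in OHT, 10.8, 9.89 and 10.7 in IACS, and 10, 9.76 and 9.33 in OHT_IACS cells. The OHT libraries were the lowest, and the other 3 conditions overlapped with their neighbours. OHT lowered it by 0.46 (standard error 0.06, limma, adjusted p = 4.2e-05), in each of 26 alternatives. IACS changed it by -0.06 in nonprimed cells (95% interval -0.18 to 0.06, limma, adjusted p = 0.51) and raised it by 0.3 in primed cells (0.17 to 0.42, limma, adjusted p = 0.0027). The latter was 0.23 without OHT replicates 1 and 3 and was then not called (adjusted p = 0.1, from 0.00024 to 0.1 over the alternatives). The interaction was 0.36 (95% interval 0.18 to 0.53, limma, adjusted p = 0.12), and it passed with weights per library (0.0094) and without OHT replicate 2 (0.045), in a range of 0.0094 to 0.45.

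**Figure D4:**
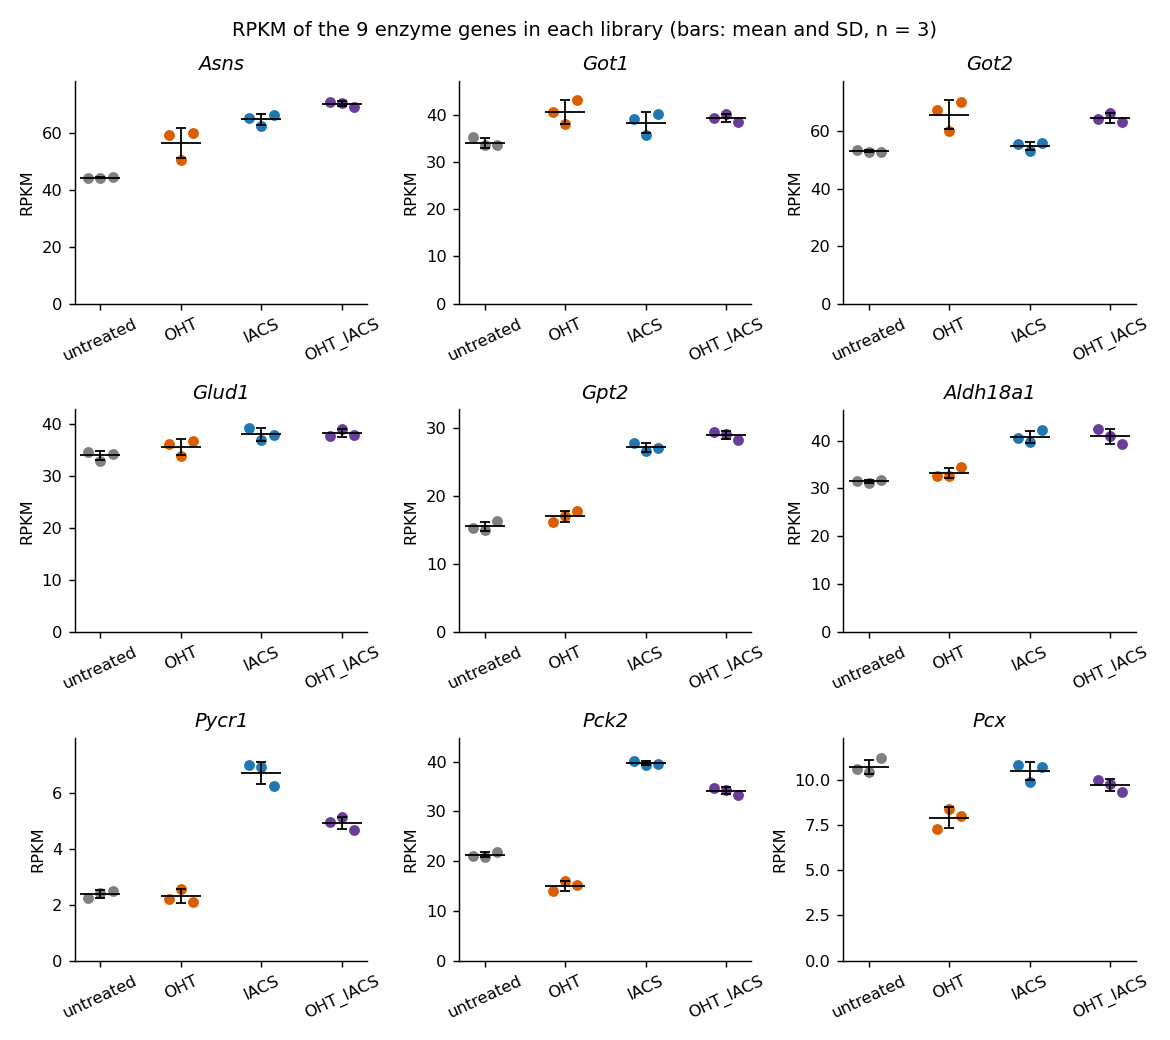
RPKM of the 9 enzyme genes (y axes, each from 0) in each of the 12 libraries by condition, with the mean and SD of the 3 replicates in black. The IACS and OHT_IACS libraries of Asns, Gpt2, Aldh18a1, Pycr1 and Pck2 lie above all libraries without IACS. These are the genes called in both responses to IACS, and the share of all genes tested that lie apart in this way is not given.

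Of 19 other genes around PEP and pyruvate, 13 could be tested. With OHT 8 rose, beside 18.2% of all genes tested, and none fell, beside 18.2% (limma, 0 also at an unadjusted p and with voom). Among them were the pyruvate dehydrogenase kinase Pdk1, from 9.19 ± 0.142 to 16.5 ± 0.317 RPKM (SD, n = 3; log2 fold change 0.82, limma, adjusted p = 1.3e-07), malic enzyme Me1 (0.46, adjusted p = 0.0053) and pyruvate kinase Pkm (0.29, adjusted p = 0.033). The call of Pkm was lost in 8 of 26 alternatives (adjusted p up to 0.73), among them without OHT replicate 1 or 3 or untreated replicate 2 or 3. Its value was 0.035 with the library total in the fit, 0.056 without OHT replicates 1 and 3 and 0.136 with quantile normalization. With IACS in nonprimed cells 1 rose and 2 fell, beside 8.15% and 7.74% of all genes. The enolase Eno3 fell by 0.32 (adjusted p = 0.022, lost in 5 of 26, among them without IACS replicate 1 or 3 or untreated replicate 1 or 3) and the pyruvate dehydrogenase component Pdhx by 0.23 (adjusted p = 0.011), while Pdk3 rose by 0.17 (adjusted p = 0.026, lost in 4 of 26, namely without IACS replicate 2 or 3 or untreated replicate 1 or 3). In primed cells, where 11.9% of all genes rose and 11.8% fell, the mitochondrial pyruvate carrier Mpc2 rose by 0.23 (adjusted p = 0.032, lost in 7 of 25, among them without OHT replicate 2 or 3 or OHT_IACS replicate 2 or 3) and Pdk1 fell by 0.2 (adjusted p = 0.013, lost without OHT replicates 1 and 3 and without OHT_IACS replicate 3).

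For comparison, 18 of 19 genes of a TCA cycle list and 9 of 11 genes of serine and folate metabolism were tested. Of the TCA cycle list 4 rose and 1 fell with IACS in nonprimed cells, with a median log2 fold change of 0.08. In primed cells 1 rose and 1 fell, with a median of 0.01. The 1 that fell was in both Idh1, by 1.29 and by 0.76 (limma, adjusted p = 7.6e-07 and 7.7e-05). It encodes the cytosolic isocitrate dehydrogenase, which is not an enzyme of the cycle itself. The succinyl-CoA ligase subunit Suclg2 rose by 0.26 and by 0.22 (limma, adjusted p = 0.0041 and 0.0085). Idh3g rose in nonprimed cells by 0.24 (adjusted p = 0.023, lost without IACS replicate 1 or 3 or any untreated library). Of the serine and folate genes 2 rose and 1 fell in nonprimed cells and 1 rose and 1 fell in primed cells, with medians of 0.22 and 0.05. With voom 4 rose and 1 fell in nonprimed cells, and 1 rose and 2 fell in primed cells. At an unadjusted p under 0.05 (limma) these were 5 and 1, and 2 and 3. The mitochondrial folate enzyme Mthfd2 rose by 0.51 and by 0.27 (limma, adjusted p = 0.00023 and 0.011), Mthfd1l rose by 0.3 in nonprimed cells (adjusted p = 0.0025), and the phosphoserine phosphatase Psph fell by 0.75 and by 0.5 (limma, adjusted p = 0.0031 and 0.02). The call of Psph in primed cells was lost in 4 of 25 alternatives (adjusted p up to 0.14), among them without OHT replicate 1 or OHT_IACS replicate 1 or 3, although the values were -0.463 to -0.561 in those 4. That of Mthfd2 was lost with only the libraries of the 2 conditions fitted (0.057, from 2.2e-06 to 0.057 over the alternatives). Without OHT replicates 1 and 3 the value of Mthfd2 in primed cells was 0.421. With OHT 8 of the 18 and 5 of the 9 rose, with medians of 0.13 and 0.19, and none of either list fell (limma, 0 also at an unadjusted p under 0.05 and with voom). Under IACS, OHT raised 2 of the 18 and 1 of the 9, with medians of 0.06 and 0.1, beside 12.3% of all genes. None of either list fell there, beside 14.2% of all genes (limma, 0 also at an unadjusted p under 0.05 and with voom). Over all genes tested, 18.2% rose and 18.2% fell with OHT, with a median of 0.013. With IACS 8.15% rose and 7.74% fell in nonprimed cells, and 11.9% rose and 11.8% fell in primed cells, with medians of 0.004 and -0.014.

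The 2 tested genes whose levels ran most like each enzyme's were found by Pearson correlation over the 12 libraries, as a description, since the libraries fall into 4 conditions. They were Mthfd2 (0.994) and the glutamyl-prolyl-tRNA synthetase Eprs (0.981) for Asns. For Pck2 they were the neutral amino acid transporter Slc1a4 (0.988) and Trim35 (0.986), and for Pycr1 Rhbdd1 (0.989) and Extl1 (0.983). Gpt2 and Aldh18a1 shared Clic4 (0.986 and 0.988), with Aqp9 (0.985) second for Gpt2 and the alanyl-tRNA synthetase Aars (0.986) second for Aldh18a1. Glud1 ran most like Sdha (0.981) and Rnf130 (0.957), and Pcx like Myo18a (0.98) and Dusp4 (0.969). For Got1 they were Ybx3 and Cox6b1 (both 0.967), and for Got2 Gsr (0.988) and l7Rn6 (0.978).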

How the data were processed

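The authors depleted ribosomal RNA, made stranded libraries and deposited RPKM per gene and library. The submitters' processing notes name TopHat2 2.0.8, TopHat, SAMtools, featureCounts 1.4.5-p1 and DESeq2 and the build mm9. The gene annotation and the strand setting of the counting are not given in the sources used here, and exons of Got2 and Pck2 overlap genes of the opposite strand in GENCODE vM21 (GRCm38), from which coordinates were taken. The authors' own DESeq2 results (fold changes on the log2 scale, with adjusted p-values, for 3 comparisons) were not used, and 0 value columns were left out.

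Library totals, gene lengths and reads were worked out from the RPKM steps, which gave whole reads (within 0.0001) for 99.99% of genes above 0. Libraries were scaled by their median ratio over 11515 genes. Genes had to reach 1 RPKM in 3 or more libraries, which 9745 did, and were fitted on log2(RPKM + 0.1) of these scaled values with limma 3.58.1 (R 4.3.3), with a variance trend, in 1 fit of 12 libraries. Overlap of conditions was read from RPKM without this scaling. Fold changes are on the log2(RPKM + 0.1) scale, which understates those of scarce genes. The levelling off of reads described above bears on those of abundant genes. Two-sided p-values were adjusted per comparison after Benjamini-Hochberg, with a threshold of 0.05. The code was tested on simulated data. Voom on the recovered reads was 1 of the alternatives. A few genes of the lists of related genes and of markers are not reported here, and list counts and marker sums leave them out. From each list of related genes the 3 with the largest absolute log2 fold change among those called were named in each response to IACS. With OHT alone this was done for all lists but those of the TCA cycle and of serine and folate metabolism. For OHT under IACS no genes of the lists were named. The rule takes no account of abundance, and Gls2 with OHT was named outside it. Members and lists were chosen with earlier results of these data known, so the naming was not blind to the data. The chi-square of replicate pairs was first computed over all genes. The subsets of scarcer genes, and the alternatives without OHT replicates 1 and 3 and with IACS replicates 1 and 2 as 1 sample, were added after seeing the data. Python 3.11.15, numpy 2.4.6, pandas 2.3.3, scipy 1.17.1 and matplotlib 3.10.9 were used.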

Additional observations from a re-analysis of the deposited data

How the results depend on the processing

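Library totals, of which reads on genes were 4198462 to 5760591, limit the precision of scarce genes, Pycr1 first. Of the counts of enzymes called, 225 values under alternatives were within 1.5 times the reported count and 8 were not. Those higher with OHT were 0 without OHT replicates 1 and 3, with 1 OHT library left and assumed to vary like the other groups. Those higher with OHT under IACS were 2 with weights per library, 0 with IACS replicates 1 and 2 as 1 sample, and 0 to 2 with 1 library left out. Those with a called interaction were 1 with quantile normalization, 4 with weights per library and 0 to 3 with 1 library left out. The cause was not tested.

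Among the values of single genes 2087 kept direction and call, 149 lost the call, 21 gained it and 40 turned sign. Of the counts over all genes 194 were within 1.5 times the reported count and 39 were not. Without OHT replicates 1 and 3 the rise with IACS in primed cells was 0.421 for Mthfd2 and 0.287 for Nars, against 0.27 and 0.18, and with weights per library Slc25a12 was at -0.268 there, against -0.17. Log2 fold changes that turned sign follow, with the cause not tested. With quantile normalization they were -0.038 for Got2 (IACS), 0.027 for Got2 (IACS, primed), 0.065 and 0.026 for the interactions of Got2 and Glud1, -0.025, 0.02 and -0.005 for Glud1, Pycr1 and Aldh18a1 (OHT), and -0.019 for Aldh18a1 (OHT under IACS). With the library total in the fit they were -0.061 for Got2 (IACS), -0.001, -0.016 and -0.016 for Got1, Glud1 and Aldh18a1 (OHT under IACS), -0.047, 0.056 and -0.02 for Glud1, Pycr1 and Aldh18a1 (OHT), and 0.051, 0.031, 0.007 and 0.004 for the interactions of Got2, Glud1, Gpt2 and Aldh18a1. Without OHT replicates 1 and 3 they were 0.07 and 0.123 for Got1 and Got2 (IACS, primed), -0.045 and 0.069 for Glud1 and Pycr1 (OHT), and 0.106, 0.059, 0.002 and 0.002 for the interactions of Got2, Glud1, Gpt2 and Aldh18a1. With IACS replicates 1 and 2 as 1 sample it was -0.014 for Aldh18a1 (OHT under IACS). With 1 library left out the ranges that crossed 0 were -0.012 to 0.1 for Got1, -0.018 to 0.033 for Glud1 and -0.022 to 0.054 for Aldh18a1 (OHT under IACS), -0.017 to 0.048 for Got2 (IACS), -0.099 to 0.016 for Got2 (IACS, primed), and -0.077 to 0.002 and -0.04 to 0.009 for the interactions of Glud1 and Gpt2.

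The genes called with an interaction, 14 as reported, were 5 with the library total in the fit and with RPKM as deposited, 6 with IACS replicates 1 and 2 as 1 sample, 7 with a replicate block and without the filter, 25 with voom, 34 with quantile normalization and 1066 with weights per library. With 1 library left out they were 3 (untreated 1, OHT 3 or OHT_IACS 3) to 149 (OHT 2). Without OHT replicates 1 and 3, 912 genes rose and 958 fell with OHT, against 1769 and 1777, and 429 rose and 284 fell with IACS in primed cells, against 1164 and 1146. With the library total in the fit 1156 fell with OHT. In nonprimed cells, against 794 higher and 754 lower with IACS, 469 fell with RPKM as deposited, and without 1 untreated or IACS library the lowest counts were 498 and 429. With weights per library 2947 rose and 2684 fell with OHT, 1447 and 1287 with IACS, and 1989 and 2210 with IACS in primed cells. No pairing by replicate number was seen. After subtracting group means, same-numbered libraries correlated from -0.172 to 0.104 and differently numbered ones from -0.182 to 0.168. This does not exclude shared batches or a pairing in another order. With the block, the calls of Slc25a12 (primed, adjusted p = 0.055, from 0.00044 to 0.32 over the alternatives) and Slc25a13 (OHT, 0.054, from 0.00049 to 0.18) were lost.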
